A study of Homo sapiens with 12 samples.

Results

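The genes described here are 47 genes of G2/M and mitosis, measured among 11963 genes on 12 arrays of 2 human acute myeloid leukaemia cell lines. They were taken by symbol from a list of such genes. A gene was read from the probe set with the highest mean over all arrays, among probe sets annotated to that gene alone, and all 47 members were found, with 77 probe sets in all. No filter on low values was applied, so every member enters every count.

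The lines are U937, a monocytic leukaemia line, and MV4-11, a myelomonocytic line known for its MLL fusion and mutated FLT3. Each line carried a GFP-expressing lentiviral vector (pRRL.H1.shRNA) with either a scrambled shRNA or an shRNA against CHD4, an ATPase that moves nucleosomes within the NuRD complex, which also holds histone deacetylases. This gives 4 groups of 3 arrays: U937 scrambled, U937 CHD4 shRNA, MV4-11 scrambled and MV4-11 CHD4 shRNA. All 4 groups carry the vector and a hairpin. No untransduced cells were analysed here, and the labels do not say how many CHD4 hairpins were used. The labels do not say how long the hairpins had been present, or whether GFP-positive cells were sorted. The series description calls the triplicates biological and asks how loss of CHD4 affects the transcriptome.

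Cells enter mitosis when cyclin A and cyclin B activate the kinase CDK1, helped by CDC25 phosphatases and opposed by inhibitory kinases. PLK1 and the Aurora kinases then build the spindle, kinesins move chromosomes and spindle poles, and the spindle checkpoint holds the anaphase-promoting complex until every kinetochore is attached. That complex marks securin and cyclin B for destruction, separase cuts cohesin, and a central spindle organised by PRC1 and the centralspindlin proteins guides cytokinesis. Most of these genes are transcribed late in the cell cycle, through the DREAM, B-MYB and FOXM1 complexes that act at CHR elements and through NF-Y at CCAAT boxes, so their messages are widely read as a sign of dividing cells.

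Values are log2 RMA values. Where 3 values follow each other they are the arrays numbered 1, 2 and 3 of a group. CHD4 itself read 10.31, 10.38 and 10.71 on the U937 scrambled arrays and 8.23, 8.13 and 8.45 with its shRNA, a log2 change of -2.20 (SE 0.14, limma adjusted p = 8.78e-06). In MV4-11 it read 10.65, 10.69 and 10.68 and 8.79, 8.85 and 8.39, a log2 change of -2.0 (SE 0.14, limma adjusted p = 1.35e-05). Every CHD4 shRNA array was lower than every scrambled array of its line. Array medians over all probe sets other than controls lay between 6.96 and 7.01. Among myeloid markers, LYZ group means ran from 13.24 to 13.73 and CEBPA from 11.30 to 11.62. The defining markers CD14 (5.05 to 5.31) and FCGR1A (3.79 to 3.91) were dim. MPO (5.20 to 5.78) and SPI1 (6.40 to 6.54) also lay below the array medians. CSF1R (6.88 to 7.24) and ITGAM (6.09 to 8.20) lay on both sides of them. CD33 and CD68 were not measured. FLT3 averaged 6.64 on U937 and 9.99 on MV4-11 scrambled arrays (limma adjusted p = 7.22e-05). No gene of the B, T, NK, erythroid, epithelial or fibroblast marker lists passed the limma test with the CHD4 shRNA, and unadjusted p-values under 0.05 were found for 1 NK gene in U937 and for 0 genes in MV4-11.

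Of 8 measured myeloid markers, 1 passed in MV4-11 and 0 in U937, where 2 had an unadjusted p under 0.05 by limma. ITGAM, the integrin CD11b of maturing myeloid cells, rose by 1.41 in MV4-11 (limma adjusted p = 0.00205) and changed by 0.66 in U937 (0.0843). The summed log2 level of the 8 markers ran from 58.10 to 59.50 on the scrambled and from 60.25 to 62.73 on the CHD4 shRNA arrays of MV4-11, and from 58.86 to 60.72 and from 61.01 to 61.56 in U937. This summed level was thus higher on the CHD4 shRNA arrays, without overlap, in both lines. Of single genes, 5.75% were higher without overlap in both lines. ITGAM had the largest change of the 8 markers in each line. SPI1, MPO, CD14 and FCGR1A changed by 0.04 to 0.18, and CSF1R by 0.09 in U937 and -0.15 in MV4-11. The sum therefore does not show a general rise of myeloid markers. The part of these markers in the mitotic results was not tested. MEIS1, a homeobox partner of HOXA9 in MLL leukaemia, changed by 0.22 in MV4-11, the line with the MLL fusion (limma adjusted p = 0.378). Between the scrambled groups MEIS1 was higher in MV4-11 by 0.58 (limma adjusted p = 0.033). HOXA9 and HOXA10 were not measured. In U937, MEIS1 rose by 0.69 (limma adjusted p = 0.014). MEIS1 passed in 8 of the 12 fits that left out 1 array; otherwise its adjusted p was 0.0616 without U937 scrambled 1, 0.0573 without U937 scrambled 2, 0.0568 without U937 CHD4 shRNA 2 and 0.0612 without U937 CHD4 shRNA 3.

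With the CHD4 shRNA most of the mitotic genes read higher in both lines, by small amounts, and in each line only 2 of them passed the test. In U937, 44 of 47 members had a log2 change above 0, against 49.3% of all genes, and the members' median was 0.26 against -0.003 over all genes. In MV4-11, 34 of 47 were above 0, against 44.3% of all genes, with a median of 0.18 against -0.027. Averaged over both lines, 41 of 47 were above 0, against 45.9% of all genes, with a median of 0.23 against -0.015. These counts of members above 0 stayed between 43 and 44 in U937, 33 and 36 in MV4-11 and 41 and 42 in the mean when arrays were centred or quantile normalized again, or probe sets averaged. The arrays measure bulk RNA, so a larger share of cells in G2/M and more of these messages per cell cannot be told apart.

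**Figure D1:**
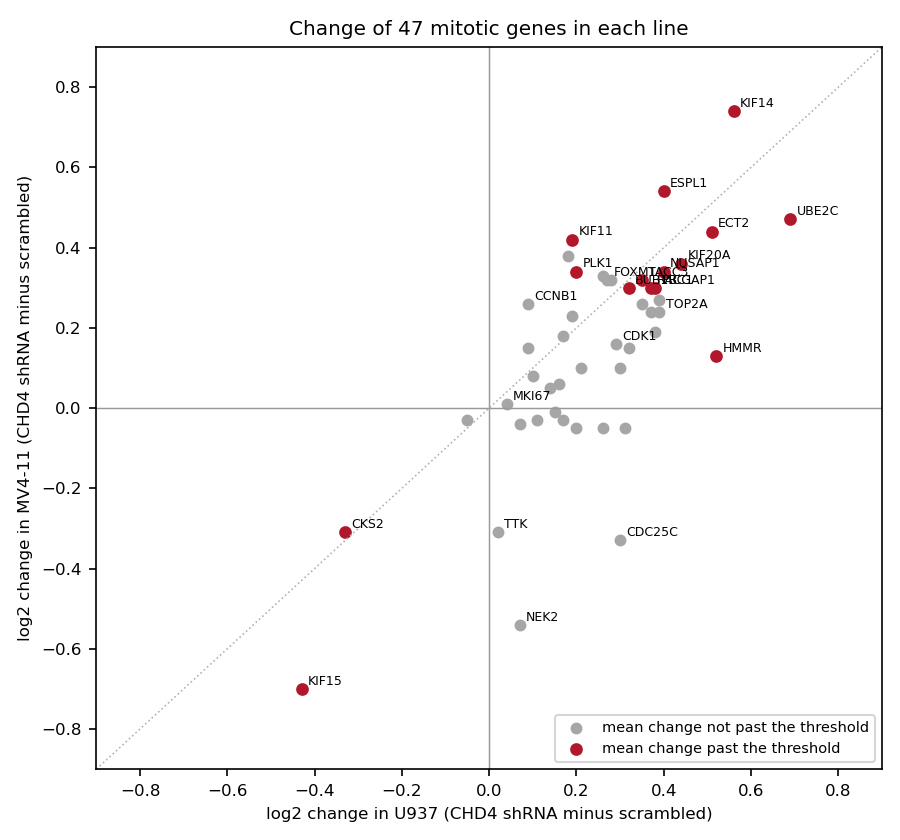
Each point is 1 of the 47 genes, placed by its log2 change with the CHD4 shRNA in U937 (horizontal axis) and in MV4-11 (vertical axis); red marks the 15 genes whose mean change over both lines passed the threshold, and the dotted line marks equal change. Of the 47 points, 34 lie above 0 in both lines and 3 below 0 in both, with KIF14 farthest up and KIF15 farthest down.

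In U937, HMMR and PRC1 rose past the threshold of an adjusted p under 0.05, which is 2 of 47 members, or 4.26%, against 6.36% of all genes in either direction and 2.67% of all genes in the upward direction. A limma p under 0.05 before adjustment was found for 16 of 47 members, against 2278 of all 11963 genes. With the pairs of the MV4-11 arrays as a block in the shared fit, 6 members passed in U937 (12.8%, against 9.76% of all genes). These were ECT2, HMMR, NUSAP1, PRC1 and UBE2C upward and CKS2 downward. That block leaves the U937 log2 changes as they were and alters the estimate of spread, which both lines share. For 12 members the 3 CHD4 shRNA arrays were all higher than the 3 scrambled arrays, against 12.2% of all genes, and for 2, CKS2 and KIF15, all were lower, against 14.6%. The number of members past the threshold in U937 depended on single arrays. It was 0 without U937 scrambled 1, U937 scrambled 2, U937 CHD4 shRNA 2, U937 CHD4 shRNA 3 or MV4-11 CHD4 shRNA 1. It was 1 without U937 CHD4 shRNA 1 or MV4-11 scrambled 1, and 5 without U937 scrambled 3 or MV4-11 CHD4 shRNA 3. HMMR passed in 5 of the 12 fits that left out 1 array; otherwise its adjusted p was 0.184 without U937 scrambled 1, 0.0872 without U937 CHD4 shRNA 1, 0.157 without U937 scrambled 2, 0.137 without U937 CHD4 shRNA 2, 0.145 without U937 CHD4 shRNA 3, 0.0665 without MV4-11 scrambled 1 and 0.0732 without MV4-11 CHD4 shRNA 1. PRC1 passed in 6 of the 12 fits that left out 1 array; otherwise its adjusted p was 0.109 without U937 scrambled 1, 0.148 without U937 scrambled 2, 0.0993 without U937 CHD4 shRNA 2, 0.145 without U937 CHD4 shRNA 3, 0.0601 without MV4-11 CHD4 shRNA 1 and 0.0558 without MV4-11 scrambled 2. The members' median in U937 was 0.39 without U937 scrambled 3 and 0.16 without U937 CHD4 shRNA 3.

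In MV4-11, KIF14 rose and KIF15 fell past the threshold, again 2 of 47 members (4.26%), against 9.42% of all genes. A limma p under 0.05 before adjustment was found for 15 of 47 members, against 2933 of all 11963 genes. All 3 CHD4 shRNA arrays were higher than all scrambled arrays for 15 members, against 11.5% of all genes, and lower for 2, again CKS2 and KIF15, against 14.1%. The MV4-11 arrays were taken as pairs by replicate number, because same-numbered arrays deviated together from their group means. The sample titles state no pairing. With these pairs as a block in the fit, 6 members passed (12.8%, against 15.9% of all genes). These were ECT2, ESPL1 and KIF14 upward and CKS2, KIF15 and NEK2 downward. Taken pair by pair, 36, 27 and 40 of 47 members were higher with the CHD4 shRNA in pairs 1, 2 and 3. Of all genes, 44.6%, 44.0% and 49.3% were higher. The members' median differences were 0.22, 0.04 and 0.24, against -0.03, -0.04 and 0.0 over all genes. For 27 members the difference was upward in every pair, against 23.1% of all genes, and for CKS2, NEK2, TTK and KIF15 it was downward in every pair, against 27.3%. Pair 2 showed the smallest excess of higher members. KIF14 passed in 10 of the 12 fits that left out 1 array; otherwise its adjusted p was 0.0924 without MV4-11 CHD4 shRNA 1 and 0.0783 without MV4-11 scrambled 2. KIF15 passed in 10 of the 12 fits that left out 1 array; otherwise its adjusted p was 0.059 without MV4-11 CHD4 shRNA 2 and 0.0642 without MV4-11 scrambled 3. The count of members past the threshold was 1 without MV4-11 CHD4 shRNA 1, MV4-11 scrambled 2 or MV4-11 scrambled 3, and 6 without MV4-11 CHD4 shRNA 3, where the members' median was 0.06.

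Averaging the change over both lines compares 6 arrays with 6, and here 15 of 47 members passed the threshold (31.9%, against 18.8% of all genes). The 13 that rose are 27.7% of the members, against 8.72% of all genes: KIF14, UBE2C, ECT2, ESPL1, KIF20A, NUSAP1, PRC1, TACC3, HMMR, RACGAP1, BUB1B, KIF11 and PLK1. KIF15 and CKS2 fell, against 10.0% of all genes that fell. By role, 6 of 9 spindle assembly and cytokinesis genes rose, and 3 of 7 kinesins. So did 2 of 4 genes of the ubiquitin ligase and separase group and 1 of 5 checkpoint genes. In the mitotic kinase group, which also holds BIRC5 of the chromosomal passenger complex, 1 of 6 genes rose. By limma no gene passed among the 5 centromere and kinetochore genes or the 3 genes of chromosome structure and transcription, where 2 and 2 had an unadjusted p under 0.05, and of the 8 cyclins, CDK1 and CDK1 regulators only CKS2 passed, downward. With the pairs of MV4-11 as a block, 20 members passed (42.6%, against 24.3% of all genes), the added genes being ASPM, CENPE, DLGAP5, NDC80 and TOP2A, all upward. In fits that left out 1 array at a time, 10 of the 15 passed in all 12 fits: BUB1B, CKS2, ECT2, KIF14, KIF15, KIF20A, NUSAP1, PRC1, TACC3 and UBE2C. For 6 members, BUB1B, KIF14, KIF20A, NUSAP1, PRC1 and ECT2, every CHD4 shRNA array was higher than every scrambled array in both lines, against 5.75% of all genes, and for CKS2 and KIF15 every one was lower in both, against 6.75%.

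**Figure D2:**
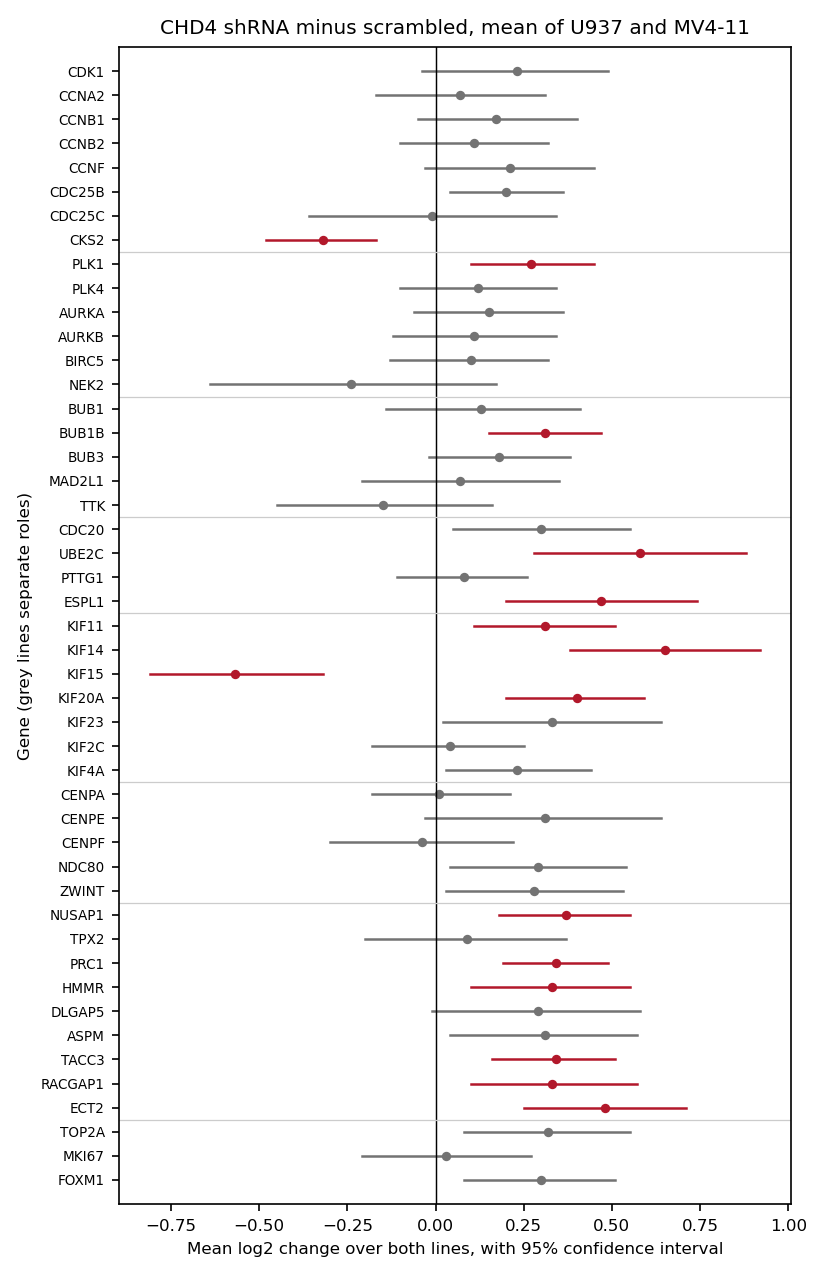
Points are the mean log2 changes over both lines of the 47 genes, in order of role, and bars are 95% confidence intervals from the limma fit; red marks the 15 genes past the threshold after adjustment over 11963 genes. KIF14 (0.65) and UBE2C (0.58) lie farthest to the right, KIF15 (-0.57) farthest to the left.

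The promoters of the 6 genes with the lowest p in this mean comparison are printed to show the elements that mitotic genes share, in genes that rose (KIF14, PRC1, ECT2, KIF20A) and in both that fell (KIF15, CKS2). Each is the 150 bases before the annotated start, 5′ to 3′ on the gene's strand, from RefSeq on GRCh38.p14, with capitals marking CHR elements (TTTGAA or TTTAAA) and CCAAT boxes on either strand (TTCAAA and ATTGG are the reverse forms).
KIF14: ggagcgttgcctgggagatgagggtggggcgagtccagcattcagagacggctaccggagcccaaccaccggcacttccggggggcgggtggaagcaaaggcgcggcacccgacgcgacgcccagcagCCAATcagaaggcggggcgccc
PRC1: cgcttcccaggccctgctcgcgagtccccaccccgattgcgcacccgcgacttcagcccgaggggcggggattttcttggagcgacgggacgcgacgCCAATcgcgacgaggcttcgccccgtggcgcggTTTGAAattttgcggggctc
ECT2: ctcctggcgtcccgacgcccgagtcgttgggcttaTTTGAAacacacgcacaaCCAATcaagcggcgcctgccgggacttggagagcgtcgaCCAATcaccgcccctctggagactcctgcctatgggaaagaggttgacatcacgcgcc
KIF20A: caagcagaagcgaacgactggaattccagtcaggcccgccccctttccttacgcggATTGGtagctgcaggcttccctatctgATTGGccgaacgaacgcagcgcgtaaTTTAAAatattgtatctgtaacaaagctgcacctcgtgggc
KIF15: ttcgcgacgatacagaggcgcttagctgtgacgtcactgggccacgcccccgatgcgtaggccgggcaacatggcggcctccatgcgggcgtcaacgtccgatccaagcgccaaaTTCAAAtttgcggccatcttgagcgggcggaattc
CKS2: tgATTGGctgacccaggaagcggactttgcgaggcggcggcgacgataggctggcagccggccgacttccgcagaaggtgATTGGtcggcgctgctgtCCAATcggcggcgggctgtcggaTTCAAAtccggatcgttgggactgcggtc

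These stretches lie at chr1:200620752-200620901 on the minus strand for KIF14, chr15:90994536-90994685 on the minus strand for PRC1, chr3:172750576-172750725 on the plus strand for ECT2, chr5:138178962-138179111 on the plus strand for KIF20A, chr3:44761644-44761793 on the plus strand for KIF15 and chr9:89311045-89311194 on the plus strand for CKS2. ECT2 has 2 annotated starts, and the one that comes first on the strand is shown. PRC1 has a CCAAT box that begins 53 bases before the start and a TTTGAA 20 bases before it, and KIF20A has CCAAT boxes at -94 and -67 and a TTTAAA at -41. In KIF15 the 150 bases hold a TTTGAA on the reverse strand at -35 and no CCAAT box, while CKS2 has CCAAT boxes at -148, -70 and -52 and a reverse TTTGAA at -29. KIF14 shows a CCAAT box at -22, and a TTTGAA begins at its start, just past the printed stretch.

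Over the wider window of 250 bases before to 50 after the start, 39 of the 47 members had a promoter in the RefSeq table. A CHR was found in 34 of these 39 (87.2%), against 24.0% of the 9562 array genes with a promoter there. CCAAT boxes were found in 33 (84.6%), against 44.2%, and both elements in 27 (69.2%), against 10.3%. A window is counted once per gene if any of its starts has the element. Counted by window, 75.0% of 52 member windows and 24.0% of all 35116 windows held a CHR. Of the 11 genes that rose in the mean and had a promoter in the table, 10 held a CHR and 9 a CCAAT box. Both genes that fell, KIF15 and CKS2, also held a CHR. These letter matches describe the sequence and do not show binding.

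Entry into mitosis is driven by CDK1 and its cyclins, and here the changes were small. CDK1, the kinase that drives entry into mitosis, read 11.47, 11.53 and 11.88 on the U937 scrambled arrays and 11.81, 11.85 and 12.10 with the CHD4 shRNA. MV4-11 values of CDK1 were 11.75, 11.78 and 12.23 with the scrambled shRNA and 12.10, 11.78 and 12.35 with the CHD4 shRNA. The CDK1 groups overlapped in both lines. For CDK1 the log2 change was 0.29 (SE 0.17) in U937 and 0.16 (SE 0.17) in MV4-11, with a mean of 0.23 (95% confidence interval -0.04 to 0.49, adjusted p = 0.243). CCNB1, the cyclin that activates CDK1 at mitotic entry, read 11.12, 11.07 and 11.53 on the U937 scrambled arrays and 11.15, 11.20 and 11.65 with the CHD4 shRNA. MV4-11 values of CCNB1 were 11.45, 11.48 and 11.33 with the scrambled shRNA and 11.67, 11.79 and 11.57 with the CHD4 shRNA. The CCNB1 groups overlapped in U937 and did not in MV4-11, where the CHD4 shRNA arrays were higher. For CCNB1 the log2 change was 0.09 (SE 0.15) in U937 and 0.26 (SE 0.15) in MV4-11, with a mean of 0.17 (95% confidence interval -0.05 to 0.40, adjusted p = 0.301). CCNF, the F-box cyclin of an SCF ubiquitin ligase, read 8.76, 8.70 and 9.11 on the U937 scrambled arrays and 8.83, 8.94 and 9.38 with the CHD4 shRNA. MV4-11 values of CCNF were 9.06, 9.12 and 8.79 with the scrambled shRNA and 9.11, 9.38 and 9.18 with the CHD4 shRNA. The CCNF groups overlapped in both lines. For CCNF the log2 change was 0.19 (SE 0.16) in U937 and 0.23 (SE 0.16) in MV4-11, with a mean of 0.21 (95% confidence interval -0.03 to 0.45, adjusted p = 0.227). The 8 genes of this role had a median change of 0.23 in U937 and 0.03 in MV4-11, and 7 and 4 of them were above 0.

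Neither of the 2 CDC25 phosphatases on the list passed. CDC25B, the phosphatase that starts CDK1 activation, read 9.72, 9.72 and 9.99 on the U937 scrambled arrays and 10.01, 10.06 and 10.26 with the CHD4 shRNA. MV4-11 values of CDC25B were 10.26, 10.21 and 10.13 with the scrambled shRNA and 10.27, 10.23 and 10.40 with the CHD4 shRNA. The CDC25B groups did not overlap in U937, where the CHD4 shRNA arrays were higher, and overlapped in MV4-11. For CDC25B the log2 change was 0.30 (SE 0.10) in U937 and 0.10 (SE 0.10) in MV4-11, with a mean of 0.20 (95% confidence interval 0.04 to 0.36, adjusted p = 0.0799). CDC25C, a phosphatase that removes inhibitory phosphates from CDK1, read 7.35, 7.37 and 7.79 on the U937 scrambled arrays and 7.83, 7.79 and 7.80 with the CHD4 shRNA. MV4-11 values of CDC25C were 6.0, 6.94 and 6.62 with the scrambled shRNA and 6.12, 6.62 and 5.84 with the CHD4 shRNA. The CDC25C groups overlapped in both lines. For CDC25C the log2 change was 0.30 (SE 0.23) in U937 and -0.33 (SE 0.23) in MV4-11, with a mean of -0.01 (95% confidence interval -0.36 to 0.34, adjusted p = 0.976). The MV4-11 arrays of CDC25C were spread widely. CKS2, the small subunit that binds CDK1 and helps it select substrates, read 12.46, 12.36 and 12.62 on the U937 scrambled arrays and 12.08, 12.13 and 12.23 with the CHD4 shRNA. MV4-11 values of CKS2 were 12.75, 12.70 and 12.79 with the scrambled shRNA and 12.32, 12.38 and 12.60 with the CHD4 shRNA. Every CKS2 value with the CHD4 shRNA was lower than every scrambled value in both lines. CKS2 fell by 0.32 on the log2 scale over both lines (SE 0.07, adjusted p = 0.00692), and its log2 change was -0.33 (SE 0.10) in U937 and -0.31 (SE 0.10) in MV4-11. The fall of CKS2 was of like size in both lines, and with the MV4-11 pairs as a block its adjusted p in MV4-11 was 0.0445. CCNA2 and CCNB2, cyclins A2 and B2, had changes of 0.17 and 0.26 in U937 and of -0.03 and -0.05 in MV4-11, and neither passed.

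In the mitotic kinase group, PLK1 alone passed in the mean of both lines. PLK1, which drives centrosome maturation, spindle assembly and mitotic exit, read 7.35, 7.22 and 7.55 on the U937 scrambled arrays and 7.37, 7.59 and 7.76 with the CHD4 shRNA. MV4-11 values of PLK1 were 7.41, 7.58 and 7.46 with the scrambled shRNA and 7.79, 7.83 and 7.86 with the CHD4 shRNA. The PLK1 groups overlapped in U937 and did not in MV4-11, where the CHD4 shRNA arrays were higher. PLK1 rose by 0.27 on the log2 scale over both lines (SE 0.08, adjusted p = 0.0328), and its log2 change was 0.20 (SE 0.11) in U937 and 0.34 (SE 0.11) in MV4-11. PLK1 passed in 4 of the 12 fits that left out 1 array; otherwise its adjusted p was 0.0717 without U937 scrambled 1, 0.0838 without U937 scrambled 2, 0.0665 without U937 CHD4 shRNA 2, 0.0774 without U937 CHD4 shRNA 3, 0.0735 without MV4-11 scrambled 1, 0.0588 without MV4-11 CHD4 shRNA 1, 0.0541 without MV4-11 CHD4 shRNA 2 and 0.0626 without MV4-11 scrambled 3. AURKA, the spindle pole kinase that activates PLK1, read 11.27, 11.14 and 11.53 on the U937 scrambled arrays and 11.41, 11.34 and 11.81 with the CHD4 shRNA. MV4-11 values of AURKA were 11.48, 11.54 and 11.67 with the scrambled shRNA and 11.57, 11.58 and 11.83 with the CHD4 shRNA. The AURKA groups overlapped in both lines. For AURKA the log2 change was 0.21 (SE 0.14) in U937 and 0.10 (SE 0.14) in MV4-11, with a mean of 0.15 (95% confidence interval -0.06 to 0.36, adjusted p = 0.349). NEK2, the kinase that separates centrosomes, read 9.90, 9.98 and 10.43 on the U937 scrambled arrays and 10.17, 10.11 and 10.24 with the CHD4 shRNA. MV4-11 values of NEK2 were 10.41, 10.55 and 11.19 with the scrambled shRNA and 10.01, 9.68 and 10.84 with the CHD4 shRNA. The NEK2 groups overlapped in both lines. For NEK2 the log2 change was 0.07 (SE 0.26) in U937 and -0.54 (SE 0.26) in MV4-11, with a mean of -0.24 (95% confidence interval -0.64 to 0.17, adjusted p = 0.46). NEK2 arrays were far apart in MV4-11, where the low value of CHD4 shRNA array 2 stood beside a high scrambled array 3. Within the MV4-11 pairs NEK2 was lower with the CHD4 shRNA in every pair, and with these pairs as a block its adjusted p in MV4-11 was 0.0269. PLK4, the centriole duplication kinase, AURKB and BIRC5, of the chromosomal passenger complex, had changes between 0.09 and 0.16 in U937 and between 0.05 and 0.15 in MV4-11. Other probe sets of BIRC5 changed by 0.36 (limma adjusted p over all probe sets = 0.0622) and 0.05 in the mean. Those of PLK4 changed by 0.29 (0.0651) and 0.20.

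Of the spindle checkpoint, 1 of 5 genes passed. BUB1B, which encodes BUBR1, a part of the mitotic checkpoint complex, read 11.19, 11.19 and 11.41 on the U937 scrambled arrays and 11.45, 11.54 and 11.75 with the CHD4 shRNA. MV4-11 values of BUB1B were 10.75, 10.84 and 10.68 with the scrambled shRNA and 11.11, 10.98 and 11.08 with the CHD4 shRNA. Every BUB1B value with the CHD4 shRNA was higher than every scrambled value in both lines. BUB1B rose by 0.31 on the log2 scale over both lines (SE 0.07, adjusted p = 0.0101), and its log2 change was 0.32 (SE 0.10) in U937 and 0.30 (SE 0.10) in MV4-11. The BUB1B change was nearly equal in both lines although the gene's level was lower in MV4-11. The other checkpoint genes did not pass. BUB1 changed by 0.31 in U937 and -0.05 in MV4-11, MAD2L1 by 0.15 and -0.01, BUB3 by 0.17 and 0.18, and the checkpoint kinase TTK by 0.02 and -0.31.

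Genes of the anaphase trigger had the largest median of any role in MV4-11, at 0.40, and reached 0.34 in U937. UBE2C, the ubiquitin-conjugating enzyme of the anaphase-promoting complex, read 9.30, 9.20 and 9.61 on the U937 scrambled arrays and 9.85, 9.94 and 10.39 with the CHD4 shRNA. MV4-11 values of UBE2C were 9.45, 10.11 and 9.63 with the scrambled shRNA and 10.09, 10.52 and 10.0 with the CHD4 shRNA. The UBE2C groups did not overlap in U937, where the CHD4 shRNA arrays were higher, and overlapped in MV4-11. UBE2C rose by 0.58 on the log2 scale over both lines (SE 0.14, adjusted p = 0.0114), and its log2 change was 0.69 (SE 0.20) in U937 and 0.47 (SE 0.20) in MV4-11. UBE2C had the largest change of any member in U937. Its SD was 0.21 on the scrambled and 0.29 on the CHD4 shRNA arrays of U937, and 0.34 and 0.28 in MV4-11. ESPL1, separase, which cuts cohesin at anaphase, read 9.85, 9.70 and 10.0 on the U937 scrambled arrays and 10.0, 10.21 and 10.54 with the CHD4 shRNA. MV4-11 values of ESPL1 were 10.0, 9.84 and 9.30 with the scrambled shRNA and 10.38, 10.22 and 10.16 with the CHD4 shRNA. The ESPL1 groups overlapped in U937 and did not in MV4-11, where the CHD4 shRNA arrays were higher. ESPL1 rose by 0.47 on the log2 scale over both lines (SE 0.12, adjusted p = 0.0189), and its log2 change was 0.40 (SE 0.18) in U937 and 0.54 (SE 0.18) in MV4-11. ESPL1 passed in 10 of the 12 fits that left out 1 array; otherwise its adjusted p was 0.0507 without U937 scrambled 2 and 0.0513 without MV4-11 CHD4 shRNA 1. With the MV4-11 pairs as a block the adjusted p of ESPL1 in MV4-11 was 0.0294. CDC20, the activator of the anaphase-promoting complex, read 10.87, 10.77 and 11.21 on the U937 scrambled arrays and 10.96, 11.09 and 11.64 with the CHD4 shRNA. MV4-11 values of CDC20 were 11.02, 11.26 and 10.99 with the scrambled shRNA and 11.40, 11.44 and 11.39 with the CHD4 shRNA. The CDC20 groups overlapped in U937 and did not in MV4-11, where the CHD4 shRNA arrays were higher. For CDC20 the log2 change was 0.28 (SE 0.16) in U937 and 0.32 (SE 0.16) in MV4-11, with a mean of 0.30 (95% confidence interval 0.05 to 0.55, adjusted p = 0.0961). PTTG1, securin, had changes of 0.20 in U937 and -0.05 in MV4-11 and did not pass.

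**Figure D3:**
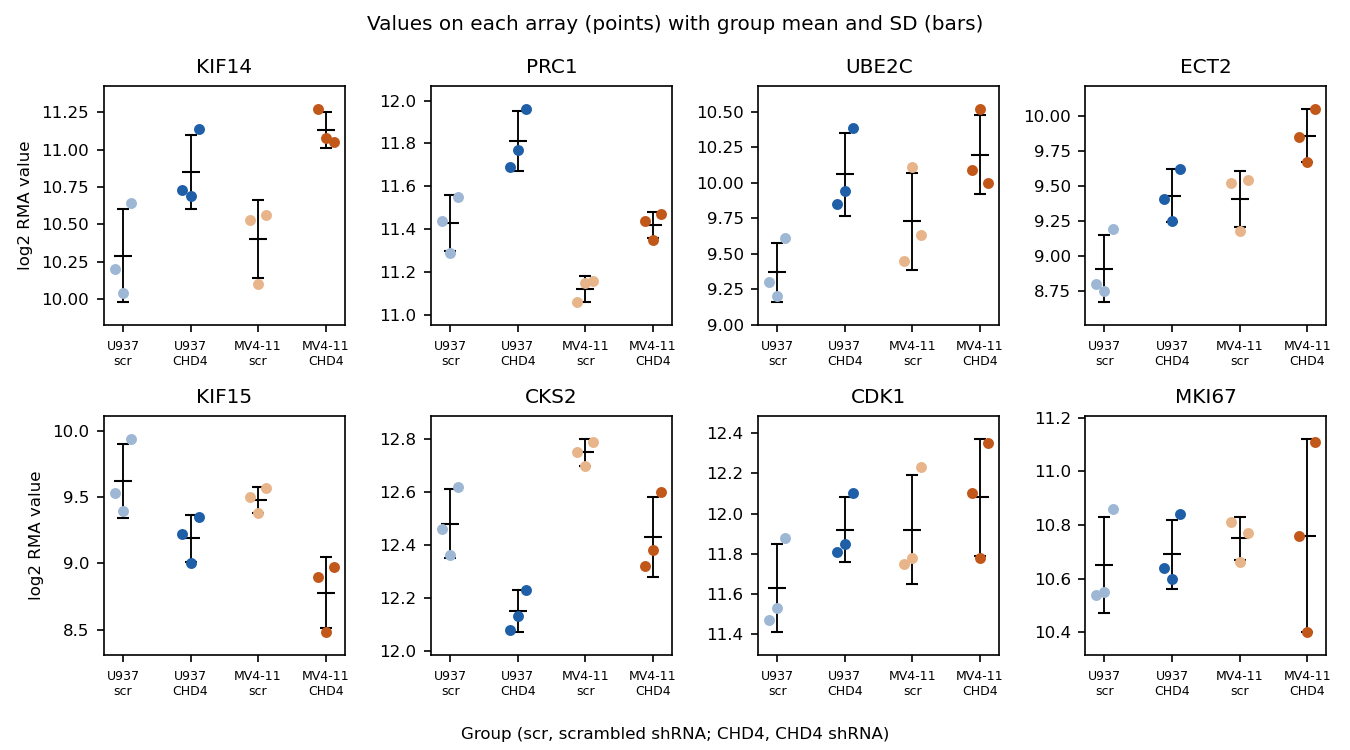
Points are the log2 RMA values of 8 genes on each array, with bars for the group mean and SD over 3 arrays; each panel has its own vertical axis, which does not start at 0. KIF14, PRC1 and ECT2 are separated upward and KIF15 and CKS2 downward with the CHD4 shRNA in both lines, while CDK1 and MKI67 overlap.

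The kinesins held both extremes of the list. KIF14, a motor of the central spindle and midbody, read 10.20, 10.04 and 10.64 on the U937 scrambled arrays and 10.73, 10.69 and 11.14 with the CHD4 shRNA. MV4-11 values of KIF14 were 10.53, 10.10 and 10.56 with the scrambled shRNA and 11.27, 11.08 and 11.05 with the CHD4 shRNA. Every KIF14 value with the CHD4 shRNA was higher than every scrambled value in both lines. KIF14 rose by 0.65 on the log2 scale over both lines (SE 0.12, adjusted p = 0.00303), and its log2 change was 0.56 (SE 0.17) in U937 and 0.74 (SE 0.17) in MV4-11. KIF14 had the largest rise of any member in the mean, 1.57-fold. In U937 its scrambled array 3 lay just under the lowest CHD4 shRNA array. KIF15, a motor that supports spindle bipolarity beside KIF11, read 9.53, 9.40 and 9.94 on the U937 scrambled arrays and 9.22, 9.0 and 9.35 with the CHD4 shRNA. MV4-11 values of KIF15 were 9.50, 9.38 and 9.57 with the scrambled shRNA and 8.90, 8.48 and 8.97 with the CHD4 shRNA. Every KIF15 value with the CHD4 shRNA was lower than every scrambled value in both lines. KIF15 fell by 0.57 on the log2 scale over both lines (SE 0.11, adjusted p = 0.00383), and its log2 change was -0.43 (SE 0.16) in U937 and -0.70 (SE 0.16) in MV4-11. KIF15 was 1.48-fold lower in the mean, the largest fall of any member. KIF11, the motor Eg5, which pushes spindle poles apart, read 9.08, 9.19 and 9.55 on the U937 scrambled arrays and 9.35, 9.37 and 9.68 with the CHD4 shRNA. MV4-11 values of KIF11 were 9.31, 9.05 and 9.23 with the scrambled shRNA and 9.67, 9.59 and 9.60 with the CHD4 shRNA. The KIF11 groups overlapped in U937 and did not in MV4-11, where the CHD4 shRNA arrays were higher. KIF11 rose by 0.31 on the log2 scale over both lines (SE 0.09, adjusted p = 0.0347), and its log2 change was 0.19 (SE 0.13) in U937 and 0.42 (SE 0.13) in MV4-11. KIF11 passed in 6 of the 12 fits that left out 1 array; otherwise its adjusted p was 0.0918 without U937 scrambled 1, 0.082 without U937 scrambled 2, 0.0829 without U937 CHD4 shRNA 3, 0.0798 without MV4-11 CHD4 shRNA 1, 0.0858 without MV4-11 scrambled 2 and 0.0551 without MV4-11 scrambled 3. KIF20A, MKLP2, which carries the passenger complex to the central spindle, read 9.60, 9.65 and 10.01 on the U937 scrambled arrays and 10.03, 10.18 and 10.36 with the CHD4 shRNA. MV4-11 values of KIF20A were 9.85, 10.08 and 10.04 with the scrambled shRNA and 10.40, 10.22 and 10.43 with the CHD4 shRNA. Every KIF20A value with the CHD4 shRNA was higher than every scrambled value in both lines. KIF20A rose by 0.40 on the log2 scale over both lines (SE 0.09, adjusted p = 0.00812), and its log2 change was 0.44 (SE 0.13) in U937 and 0.36 (SE 0.13) in MV4-11.

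KIF23, MKLP1, the motor of centralspindlin, read 9.29, 9.36 and 9.97 on the U937 scrambled arrays and 9.77, 9.75 and 10.27 with the CHD4 shRNA. MV4-11 values of KIF23 were 9.45, 9.48 and 9.78 with the scrambled shRNA and 9.75, 9.63 and 10.14 with the CHD4 shRNA. The KIF23 groups overlapped in both lines. For KIF23 the log2 change was 0.39 (SE 0.20) in U937 and 0.27 (SE 0.20) in MV4-11, with a mean of 0.33 (95% confidence interval 0.02 to 0.64, adjusted p = 0.135). KIF4A, a chromosome-bound motor that binds PRC1, read 9.92, 9.93 and 10.25 on the U937 scrambled arrays and 10.15, 10.30 and 10.61 with the CHD4 shRNA. MV4-11 values of KIF4A were 10.35, 10.26 and 10.28 with the scrambled shRNA and 10.39, 10.32 and 10.63 with the CHD4 shRNA. The KIF4A groups overlapped in both lines. For KIF4A the log2 change was 0.32 (SE 0.13) in U937 and 0.15 (SE 0.13) in MV4-11, with a mean of 0.23 (95% confidence interval 0.03 to 0.44, adjusted p = 0.108). Both stayed short of the threshold in the mean of both lines. KIF2C, the microtubule depolymerase MCAK, had changes of 0.11 in U937 and -0.03 in MV4-11.

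At the centromere and kinetochore no gene passed without the pairs. CENPE, a kinetochore kinesin that aligns chromosomes, read 8.82, 8.85 and 9.33 on the U937 scrambled arrays and 9.32, 9.25 and 9.47 with the CHD4 shRNA. MV4-11 values of CENPE were 9.07, 8.59 and 8.99 with the scrambled shRNA and 9.50, 8.58 and 9.36 with the CHD4 shRNA. The CENPE groups overlapped in both lines. For CENPE the log2 change was 0.35 (SE 0.22) in U937 and 0.26 (SE 0.22) in MV4-11, with a mean of 0.31 (95% confidence interval -0.03 to 0.64, adjusted p = 0.215). With the MV4-11 pairs as a block the adjusted p of the mean change was 0.0463 for CENPE. NDC80, the microtubule-binding core of the outer kinetochore, read 9.23, 9.29 and 9.65 on the U937 scrambled arrays and 9.54, 9.56 and 9.85 with the CHD4 shRNA. MV4-11 values of NDC80 were 9.91, 9.70 and 10.22 with the scrambled shRNA and 10.18, 10.10 and 10.53 with the CHD4 shRNA. The NDC80 groups overlapped in both lines. For NDC80 the log2 change was 0.26 (SE 0.16) in U937 and 0.33 (SE 0.16) in MV4-11, with a mean of 0.29 (95% confidence interval 0.04 to 0.54, adjusted p = 0.101). With the same block NDC80 had an adjusted p of 0.0309 in the mean. ZWINT, an outer kinetochore protein, read 10.83, 10.77 and 11.04 on the U937 scrambled arrays and 10.85, 10.95 and 11.37 with the CHD4 shRNA. MV4-11 values of ZWINT were 11.08, 11.10 and 10.78 with the scrambled shRNA and 11.42, 11.60 and 11.08 with the CHD4 shRNA. The ZWINT groups overlapped in both lines. For ZWINT the log2 change was 0.18 (SE 0.16) in U937 and 0.38 (SE 0.16) in MV4-11, with a mean of 0.28 (95% confidence interval 0.03 to 0.53, adjusted p = 0.117). CENPA, the centromeric histone H3 variant, changed by 0.07 in U937 and -0.04 in MV4-11, and CENPF, a kinetochore protein of G2, by -0.05 and -0.03.

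Spindle assembly and cytokinesis genes were the role with the most calls, 6 of 9, and all 9 were above 0 in both lines, with medians of 0.38 in U937 and 0.30 in MV4-11. NUSAP1, which binds and stabilises spindle microtubules, read 11.95, 11.86 and 12.19 on the U937 scrambled arrays and 12.26, 12.35 and 12.58 with the CHD4 shRNA. MV4-11 values of NUSAP1 were 11.72, 11.69 and 11.85 with the scrambled shRNA and 12.11, 11.93 and 12.24 with the CHD4 shRNA. Every NUSAP1 value with the CHD4 shRNA was higher than every scrambled value in both lines. NUSAP1 rose by 0.37 on the log2 scale over both lines (SE 0.08, adjusted p = 0.00896), and its log2 change was 0.40 (SE 0.12) in U937 and 0.34 (SE 0.12) in MV4-11. The second NUSAP1 probe set changed by 0.36 in the mean. PRC1, which bundles antiparallel microtubules of the central spindle, read 11.44, 11.29 and 11.55 on the U937 scrambled arrays and 11.69, 11.77 and 11.96 with the CHD4 shRNA. MV4-11 values of PRC1 were 11.06, 11.15 and 11.16 with the scrambled shRNA and 11.44, 11.35 and 11.47 with the CHD4 shRNA. Every PRC1 value with the CHD4 shRNA was higher than every scrambled value in both lines. PRC1 rose by 0.34 on the log2 scale over both lines (SE 0.07, adjusted p = 0.00489), and its log2 change was 0.38 (SE 0.10) in U937 and 0.30 (SE 0.10) in MV4-11. PRC1 was lower in MV4-11 than in U937 in both conditions, yet the change was of like size. HMMR, a spindle pole protein and hyaluronan receptor, read 10.76, 10.81 and 11.12 on the U937 scrambled arrays and 11.38, 11.41 and 11.47 with the CHD4 shRNA. MV4-11 values of HMMR were 11.25, 10.97 and 11.43 with the scrambled shRNA and 11.39, 11.09 and 11.55 with the CHD4 shRNA. The HMMR groups did not overlap in U937, where the CHD4 shRNA arrays were higher, and overlapped in MV4-11. HMMR rose by 0.33 on the log2 scale over both lines (SE 0.10, adjusted p = 0.0421), and its log2 change was 0.52 (SE 0.14) in U937 and 0.13 (SE 0.14) in MV4-11. HMMR passed in 3 of the 12 fits that left out 1 array; otherwise its adjusted p was 0.106 without U937 scrambled 1, 0.062 without U937 CHD4 shRNA 1, 0.0962 without U937 scrambled 2, 0.0747 without U937 CHD4 shRNA 2, 0.0852 without U937 CHD4 shRNA 3, 0.066 without MV4-11 scrambled 1, 0.0916 without MV4-11 CHD4 shRNA 1, 0.1 without MV4-11 scrambled 2 and 0.0738 without MV4-11 CHD4 shRNA 3. TACC3, which links spindle microtubules together with clathrin, read 9.31, 9.31 and 9.58 on the U937 scrambled arrays and 9.58, 9.66 and 10.01 with the CHD4 shRNA. MV4-11 values of TACC3 were 9.45, 9.44 and 9.37 with the scrambled shRNA and 9.80, 9.74 and 9.68 with the CHD4 shRNA. The TACC3 groups overlapped in U937 and did not in MV4-11, where the CHD4 shRNA arrays were higher. TACC3 rose by 0.34 on the log2 scale over both lines (SE 0.08, adjusted p = 0.0135), and its log2 change was 0.35 (SE 0.12) in U937 and 0.32 (SE 0.12) in MV4-11.

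RACGAP1 and ECT2 set off furrow ingression, and both rose in the mean. RACGAP1, the GTPase-activating subunit of centralspindlin, read 10.34, 10.57 and 10.89 on the U937 scrambled arrays and 10.85, 10.90 and 11.16 with the CHD4 shRNA. MV4-11 values of RACGAP1 were 10.54, 10.86 and 10.98 with the scrambled shRNA and 11.02, 11.04 and 11.22 with the CHD4 shRNA. The RACGAP1 groups overlapped in U937 and did not in MV4-11, where the CHD4 shRNA arrays were higher. RACGAP1 rose by 0.33 on the log2 scale over both lines (SE 0.11, adjusted p = 0.045), and its log2 change was 0.37 (SE 0.15) in U937 and 0.30 (SE 0.15) in MV4-11. RACGAP1 passed in 3 of the 12 fits that left out 1 array; otherwise its adjusted p was 0.114 without U937 scrambled 1, 0.0904 without U937 scrambled 2, 0.0663 without U937 CHD4 shRNA 2, 0.108 without U937 CHD4 shRNA 3, 0.104 without MV4-11 scrambled 1, 0.0689 without MV4-11 CHD4 shRNA 1, 0.0661 without MV4-11 scrambled 2, 0.0581 without MV4-11 CHD4 shRNA 2 and 0.0738 without MV4-11 CHD4 shRNA 3. ECT2, the exchange factor that activates RhoA at the cell equator, read 8.80, 8.75 and 9.19 on the U937 scrambled arrays and 9.41, 9.25 and 9.62 with the CHD4 shRNA. MV4-11 values of ECT2 were 9.52, 9.18 and 9.54 with the scrambled shRNA and 9.85, 9.67 and 10.05 with the CHD4 shRNA. Every ECT2 value with the CHD4 shRNA was higher than every scrambled value in both lines. ECT2 rose by 0.48 on the log2 scale over both lines (SE 0.11, adjusted p = 0.00773), and its log2 change was 0.51 (SE 0.15) in U937 and 0.44 (SE 0.15) in MV4-11. With the MV4-11 pairs as a block the adjusted p of ECT2 in MV4-11 was 0.0405. DLGAP5, HURP, a microtubule stabiliser near chromosomes, read 10.22, 10.17 and 10.57 on the U937 scrambled arrays and 10.60, 10.57 and 10.92 with the CHD4 shRNA. MV4-11 values of DLGAP5 were 10.53, 10.37 and 10.84 with the scrambled shRNA and 10.75, 10.39 and 11.18 with the CHD4 shRNA. The DLGAP5 groups overlapped in both lines. For DLGAP5 the log2 change was 0.38 (SE 0.19) in U937 and 0.19 (SE 0.19) in MV4-11, with a mean of 0.29 (95% confidence interval -0.01 to 0.58, adjusted p = 0.182). ASPM, a spindle pole protein, read 9.45, 9.49 and 9.78 on the U937 scrambled arrays and 9.94, 9.93 and 9.97 with the CHD4 shRNA. MV4-11 values of ASPM were 9.80, 9.57 and 9.84 with the scrambled shRNA and 10.19, 9.48 and 10.26 with the CHD4 shRNA. The ASPM groups did not overlap in U937, where the CHD4 shRNA arrays were higher, and overlapped in MV4-11. For ASPM the log2 change was 0.37 (SE 0.17) in U937 and 0.24 (SE 0.17) in MV4-11, with a mean of 0.31 (95% confidence interval 0.04 to 0.57, adjusted p = 0.11). With that block the adjusted p of the mean was 0.0438 for DLGAP5 and 0.0209 for ASPM. TPX2, the spindle assembly factor that activates AURKA, changed by 0.10 in U937 and 0.08 in MV4-11 and did not pass.

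The last role joins chromosome structure and transcription, and none of its 3 genes passed without the pairs. TOP2A, the topoisomerase that untangles sister chromatids, read 11.77, 11.91 and 12.34 on the U937 scrambled arrays and 12.29, 12.31 and 12.60 with the CHD4 shRNA. MV4-11 values of TOP2A were 12.28, 12.18 and 12.48 with the scrambled shRNA and 12.61, 12.35 and 12.70 with the CHD4 shRNA. The TOP2A groups overlapped in both lines. For TOP2A the log2 change was 0.39 (SE 0.15) in U937 and 0.24 (SE 0.15) in MV4-11, with a mean of 0.32 (95% confidence interval 0.08 to 0.55, adjusted p = 0.0605). With the MV4-11 pairs as a block its adjusted p in the mean was 0.0389. FOXM1, a transcription factor of the G2/M programme, read 8.82, 8.65 and 9.11 on the U937 scrambled arrays and 8.95, 9.0 and 9.43 with the CHD4 shRNA. MV4-11 values of FOXM1 were 9.24, 9.33 and 9.15 with the scrambled shRNA and 9.53, 9.59 and 9.57 with the CHD4 shRNA. The FOXM1 groups overlapped in U937 and did not in MV4-11, where the CHD4 shRNA arrays were higher. For FOXM1 the log2 change was 0.27 (SE 0.14) in U937 and 0.32 (SE 0.14) in MV4-11, with a mean of 0.30 (95% confidence interval 0.08 to 0.51, adjusted p = 0.0529). MKI67, the proliferation marker Ki-67, read 10.54, 10.55 and 10.86 on the U937 scrambled arrays and 10.64, 10.60 and 10.84 with the CHD4 shRNA. MV4-11 values of MKI67 were 10.81, 10.66 and 10.77 with the scrambled shRNA and 10.76, 10.40 and 11.11 with the CHD4 shRNA. The MKI67 groups overlapped in both lines. For MKI67 the log2 change was 0.04 (SE 0.16) in U937 and 0.01 (SE 0.16) in MV4-11, with a mean of 0.03 (95% confidence interval -0.21 to 0.27, adjusted p = 0.917). The probe set that represents MKI67 was the one with the highest mean, and the gene's other probe sets read differently. They changed by 0.58 (limma adjusted p over all probe sets = 0.00973), 0.56 (0.0223) and 0.23 (0.0955) in the mean of both lines. MKI67 thus did not pass by its representative probe set, whereas 2 of its other probe sets passed.

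Of the 47 members, 17 had more than 1 probe set, with 30 probe sets beside those used. No probe sets of a gene had changes of opposite sign for 14 of the 17 in U937, 13 in MV4-11 and 16 in the mean, where a change that rounds to 0 at 2 decimals has no sign. In the mean the gene with opposite signs was CENPF. CENPF changed by -0.04 from its brightest probe set and 0.37 from another (adjusted p over all probe sets = 0.124), while BUB1 changed by 0.13 from its brightest and by 0.35 from a dim one (0.038). Of the 30 other probe sets, 6 passed in the mean, 2 in MV4-11 and 0 in U937 by limma, while 13, 9 and 7 had an unadjusted p under 0.05.

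The members moved together from array to array also within a group, most of all in U937. On U937 scrambled array 3, all 47 members lay above their group mean, against 1 and 0 on arrays 1 and 2, and their median deviation was 0.25. On U937 CHD4 shRNA array 3, 45 lay above, against 3 and 6 on arrays 1 and 2, with a median deviation of 0.19. In MV4-11 the counts were 18, 19 and 34 on the scrambled and 18, 10 and 35 on the CHD4 shRNA arrays. Over all genes the share above the group mean was between 46.7% and 53.0% on every array. The median SD within a group was 0.22 for the members in U937 scrambled, against 0.12 for all genes. Measured from the scrambled mean of the same line, the members' median was 0.12, 0.21 and 0.46 on the U937 CHD4 shRNA arrays, and 0.18, 0.03 and 0.30 in MV4-11. U937 scrambled array 3, at 0.25, thus stood above U937 CHD4 shRNA arrays 1 and 2 and below array 3.

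The 4 arrays numbered 3 were therefore left out together, a setting chosen after their values had been seen, which leaves 2 arrays in each group. The members' medians were then 0.29 in U937, 0.15 in MV4-11 and 0.24 in the mean of both lines, with 44, 33 and 41 of 47 members above 0. In the mean, 20 members passed (42.6%, against 18.5% of all genes), and 14 of the 15 described above were among them. PLK1 was the one lost, with an adjusted p of 0.0602, and BUB3, FOXM1, KIF23, NDC80, TOP2A and ZWINT were added. In U937, 2 members passed, HMMR and KIF23 (against 3.41% of all genes), and in MV4-11, 7 (against 15.6%): KIF14, KIF15, CKS2, KIF11, NEK2, TACC3 and ZWINT. Between the lines, 14 members passed in the scrambled groups (against 5.59%), all higher in MV4-11, and 13 with the CHD4 shRNA (against 22.5%). Both downward calls between the scrambled groups were lost, BUB1B with an adjusted p of 0.0522 and CDC25C with 0.0966.

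**Figure D4:**
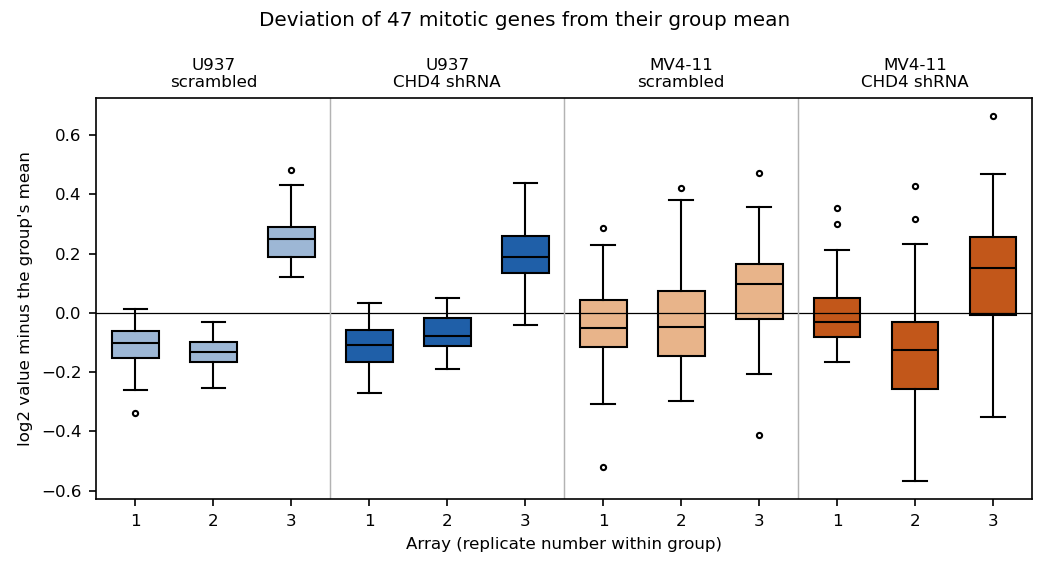
Boxes show, for each array, the deviations of the 47 genes from their group mean (log2; line, median; box, quartiles; whiskers, 1.5 interquartile ranges; circles, genes beyond). The arrays numbered 3 lie highest in every group, with medians of 0.25 and 0.19 in U937 and 0.10 and 0.15 in MV4-11.

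**Figure D5:**
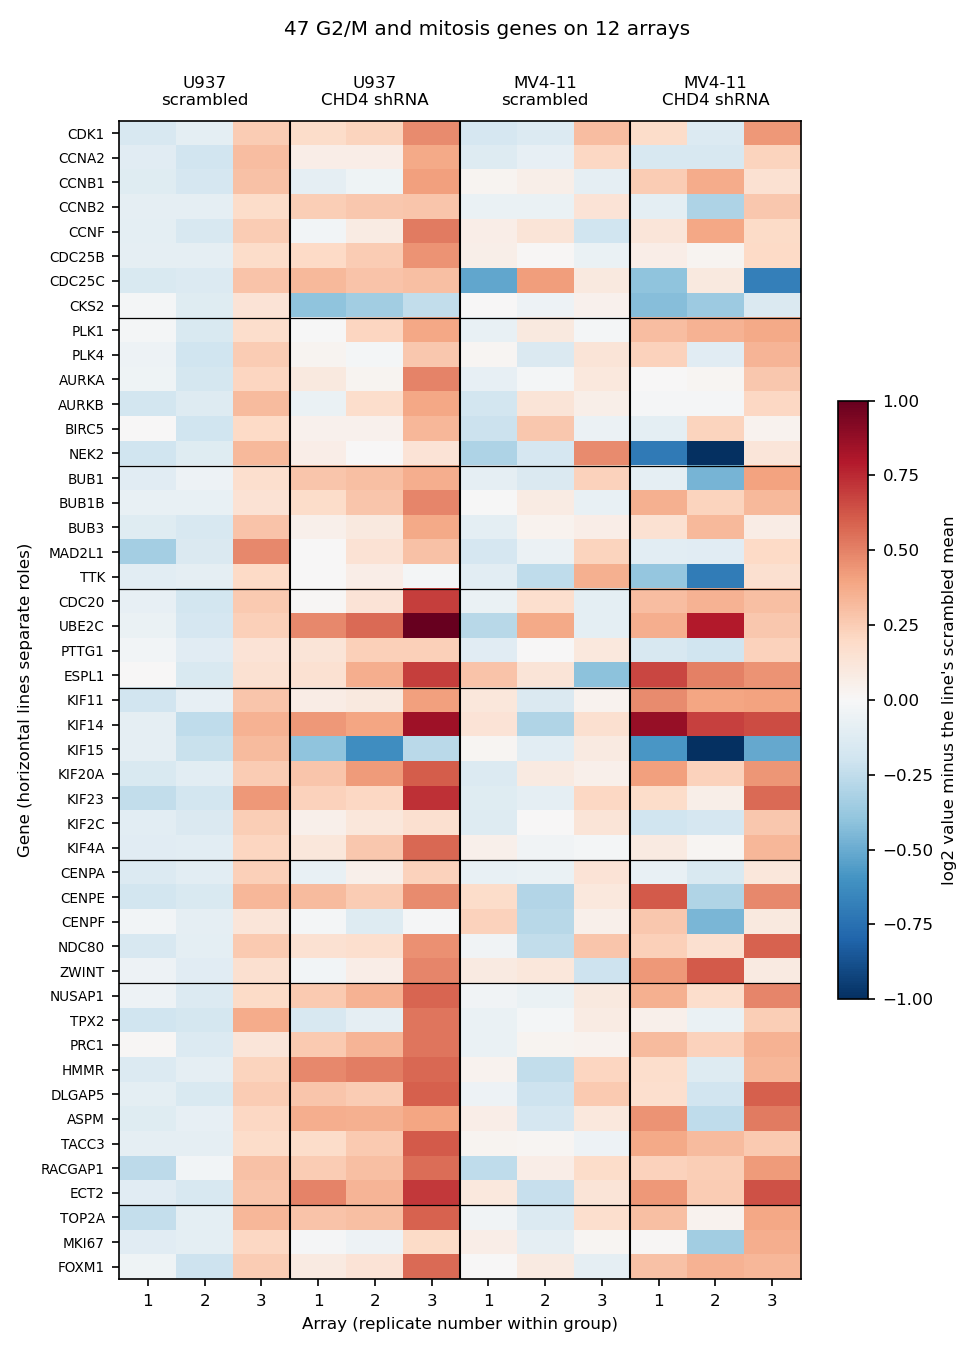
Colours give each gene's log2 value minus the scrambled mean of its own line, for the 47 genes (rows, by role) on 12 arrays (columns), clipped at -1 and 1. Red prevails with the CHD4 shRNA and on U937 scrambled array 3, while CKS2 and KIF15 are blue on all 6 CHD4 shRNA arrays.

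The test of the difference between the lines, the MV4-11 change minus the U937 change, found no member and no gene past the threshold with limma (0 of 47, against 0.0% of 11963 genes). Before adjustment 0 members and 546 genes had a p under 0.05, and with the MV4-11 pairs as a block the count was again 0. The widest differences were CDC25C, -0.63 (95% confidence interval -1.33 to 0.07), NEK2, -0.61 (-1.42 to 0.20), and HMMR, -0.40 (-0.84 to 0.04), each with an adjusted p of 0.937. Intervals of this width do not show that the lines respond alike. The MV4-11 change was the higher one for 14 of 47 members, against 47.9% of all genes. Over both lines, 34 members were above 0 in each (against 30.3% of all genes) and 3 below 0 in both, CKS2, KIF15 and CENPF (against 36.4%). The other 10 were above 0 in U937 only: CCNA2, CCNB2, CDC25C, NEK2, BUB1, MAD2L1, TTK, PTTG1, KIF2C and CENPA. Across members the changes in the 2 lines correlated at r = 0.73, and across all genes at 0.71, where genes are not independent and each gene's values share arrays.

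Between the scrambled controls the mitotic genes read higher in MV4-11 than in U937 for 38 of 47 members, against 42.9% of all genes, with a median difference of 0.24 against -0.033. Single genes that passed were 4 (8.51%, against 5.48% of all genes). BIRC5, survivin, was higher by 0.59 (SE 0.15, adjusted p = 0.0355), reading 8.95, 8.75 and 9.15 in U937 and 9.32, 9.81 and 9.48 in MV4-11. CDC25B was higher by 0.39 (SE 0.10, adjusted p = 0.0479). CDC25C and BUB1B were lower in MV4-11, with log2 differences of -0.98 (SE 0.23, adjusted p = 0.0249) and -0.51 (SE 0.10, adjusted p = 0.0122). Next by p in the upward direction were NDC80 at 0.55, PTTG1 at 0.40 and ECT2 at 0.50, and downward PRC1 at -0.30, NUSAP1 at -0.25 and KIF15 at -0.14, none of which passed. PTTG1 read 12.18, 12.10 and 12.35 on the U937 and 12.50, 12.62 and 12.72 on the MV4-11 scrambled arrays.

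The calls between the scrambled groups each depended on single arrays. BIRC5 passed in 7 of the 12 fits that left out 1 array; otherwise its adjusted p was 0.115 without U937 scrambled 1, 0.148 without U937 scrambled 2, 0.0506 without U937 CHD4 shRNA 2, 0.15 without MV4-11 scrambled 2 and 0.0917 without MV4-11 scrambled 3. CDC25B passed in 4 of the 12 fits that left out 1 array; otherwise its adjusted p was 0.18 without U937 scrambled 1, 0.0586 without U937 CHD4 shRNA 1, 0.169 without U937 scrambled 2, 0.0661 without U937 CHD4 shRNA 2, 0.108 without MV4-11 scrambled 1, 0.0706 without MV4-11 CHD4 shRNA 1, 0.137 without MV4-11 scrambled 2 and 0.0929 without MV4-11 scrambled 3. CDC25C passed in 7 of the 12 fits that left out 1 array; otherwise its adjusted p was 0.0625 without U937 scrambled 1, 0.065 without U937 scrambled 2, 0.0863 without U937 scrambled 3, 0.0605 without MV4-11 scrambled 1 and 0.0655 without MV4-11 scrambled 3. BUB1B passed in 11 of the 12 fits that left out 1 array; otherwise its adjusted p was 0.0566 without MV4-11 scrambled 3. The number of members past the threshold was 0 without MV4-11 scrambled 3 and 9 without U937 scrambled 3, the array on which all 47 members were high. It was 1 without U937 scrambled 1 or U937 scrambled 2, 2 without U937 CHD4 shRNA 2, MV4-11 scrambled 1 or MV4-11 scrambled 2, and 7 without MV4-11 CHD4 shRNA 3.

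With the CHD4 shRNA, 36 of 47 members were higher in MV4-11 than in U937, against 42.8% of all genes, with a median of 0.15 against -0.040. The median was 0.06 without MV4-11 CHD4 shRNA 3, 0.08 without U937 CHD4 shRNA 1 and 0.25 without U937 CHD4 shRNA 3. Again 4 passed (8.51%, against 6.44% of all genes). CDC25C was lower in MV4-11, with a log2 difference of -1.61 (SE 0.23, adjusted p = 0.0015), as were BUB1B at -0.52 (adjusted p = 0.0106) and PRC1 at -0.39 (adjusted p = 0.0361). NDC80 was higher by 0.62 (adjusted p = 0.0409), a call lost with median centring or a further quantile normalization. NDC80 passed in 5 of the 12 fits that left out 1 array; otherwise its adjusted p was 0.0539 without U937 scrambled 1, 0.134 without U937 CHD4 shRNA 1, 0.0574 without U937 scrambled 2, 0.149 without U937 CHD4 shRNA 2, 0.0537 without MV4-11 scrambled 1, 0.0828 without MV4-11 CHD4 shRNA 1 and 0.082 without MV4-11 CHD4 shRNA 3. PRC1 passed in 5 of the 12 fits that left out 1 array; otherwise its adjusted p was 0.0555 without U937 scrambled 1, 0.0536 without U937 CHD4 shRNA 1, 0.0924 without U937 CHD4 shRNA 2, 0.0778 without U937 CHD4 shRNA 3, 0.0934 without MV4-11 CHD4 shRNA 1, 0.051 without MV4-11 scrambled 2 and 0.114 without MV4-11 CHD4 shRNA 2. BUB1B and CDC25C passed in all 12 fits. The count was 2 without U937 scrambled 1, U937 CHD4 shRNA 1, U937 CHD4 shRNA 2 or MV4-11 CHD4 shRNA 1. Next by p, without passing, were BIRC5 at 0.50, FOXM1 at 0.44, CKS2 at 0.29 and ECT2 at 0.43 in the upward direction, and downward KIF15 at -0.41 and NUSAP1 at -0.30. Over all 4 groups, U937 scrambled was the lowest group for 37 of 47 members (19.9% of all genes) and MV4-11 CHD4 shRNA the highest for 27 (22.6%). The group means of the members ran from 7.37 to 12.48 in U937 scrambled and from 6.19 to 12.57 in MV4-11 CHD4 shRNA; probe sets differ in brightness, so the order of genes within a group was not read.

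Other genes of the same processes were counted from 6 lists of pathway genes that hold no member. Among 17 genes of G2/M entry, its brakes and the exit phosphatase, 4 rose and 2 fell in the mean of both lines, with a median of 0.10. For this and the following counts in the mean, 8.72% of all genes rose and 10.0% fell. BTG1, an antiproliferative gene, rose by 0.48 (adjusted p = 0.00152), while GADD45A and GADD45B, stress genes that restrain CDK1, fell by 0.53 (adjusted p = 0.0124) and 0.29 (adjusted p = 0.00431). Of 37 other kinetochore, centromere and spindle genes, 30 were above 0, with a median of 0.15, but 2 rose and 2 fell past the threshold. MAD1L1, which recruits MAD2 to unattached kinetochores, fell by 0.59 (adjusted p = 0.00117), and SPAG5, the spindle protein astrin, rose by 0.36 (adjusted p = 0.011). These 5 genes passed in all 12 fits that left out 1 array, although GADD45A had an adjusted p of 0.0921 without the 4 arrays numbered 3. CENPB, which rose by 0.35 (adjusted p = 0.0328), passed in 5 of the 12 fits.

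Subunits and regulators of the anaphase-promoting complex gave 1 rise and 1 fall among 11, the rise being ANAPC15 at 0.47 (adjusted p = 0.00682). Among 17 genes of cohesin, condensin and chromosome structure, 4 rose and 0 fell, with a median of 0.02, and NCAPG2, a condensin II subunit, rose by 0.36 (adjusted p = 0.0079). DREAM, MuvB and E2F regulators gave 2 rises and 1 fall among 18, the fall being TFDP2, an E2F partner, at -0.73 (adjusted p = 0.0133). For replication and G1/S, 3 of 35 genes rose and 3 fell. CCNE2, cyclin E2, rose by 1.09 (adjusted p = 0.00612), CCND3, cyclin D3, rose by 0.85 (adjusted p = 0.00661), and the DNA ligase LIG1 fell by 0.44 (adjusted p = 0.00173). The genes named so far from these 4 lists also passed in all 12 fits that left out 1 array. Other genes called in these lists passed in fewer of the 12 fits. ANAPC13 passed in 5, WAPL in 10, STAG1 in 4, E2F3 in 6 and E2F8 in 7. All of these lists had smaller medians than the 47 members, and no test compared them.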

How the data were processed

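Total RNA was labelled as biotinylated cRNA and hybridised to 12 Affymetrix arrays. The values the authors deposited are on the log2 scale, and the submitters' processing notes name RMA; its version is not given in the sources used here. RMA makes the arrays' value distributions alike, so only changes relative to other genes can be read. In the sample labels the target reads CDH4, in the series description CHD4; CHD4 is used here.

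Of 22277 probe sets, 62 controls were left out; 19064 had 1 gene symbol, 1043 several and 2108 none. Each of 11963 genes was read from its probe set with the highest mean. One 4-group limma model (limma 3.58.1, R 4.3.3) gave log2 changes, standard errors and p-values, adjusted by Benjamini-Hochberg over all genes, with a threshold of 0.05. The scripts were tested on simulated data. The number of arrays limits the precision, and the sources call the triplicates biological without naming separate cultures, so p-values measure only the spread between these samples.

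Same-numbered arrays deviated from their group means together in MV4-11 (r = 0.46, 0.48 and 0.49 over all genes). These numbers were therefore taken as pairs, although the sample titles state no pairing. Results with the pairs as a block are given beside the others. In U937 r was 0.00, 0.35 and 0.34, and the numbers were not taken as pairs.

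Array values are given for members past the threshold in a CHD4 shRNA comparison with or without the block, the 5 members with the lowest p in each (3 for the difference between lines), and CDK1, CCNB1, PLK1, AURKA, BUB1B, TOP2A, MKI67 and FOXM1. At most 3 called genes with the lowest p are named per pathway list. The members and gene lists were chosen with earlier results of these data known. Promoters were available for 39 members, and 8 had none in the table. Alternatives were median centring, quantile normalization, averaged probe sets, removal of the dimmest 25% of genes, eBayes with trend, fits of only the groups compared, replicate blocks and leaving out single arrays. The block in MV4-11 alone and the removal of all arrays numbered 3 were added after seeing the data.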

Additional observations from a re-analysis of the deposited data

How the results depend on the processing

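The members' median changes kept their direction under every alternative in all comparisons except the difference between the lines, where leaving out single arrays gave -0.22 to 0.01. No single-gene result reversed: of 3550 single-gene values under the alternatives, 3266 stayed on their side of the threshold, 138 came to pass it and 146 no longer did. With a replicate block within each line, 1474 genes and 17 members passed in U937, 2351 genes and 21 members in MV4-11, and 3256 genes and 29 members in the mean of both lines; the U937 numbers are not shown to pair the arrays. With a replicate block in MV4-11 alone, 1168 genes and 6 members passed in U937, and 1903 genes and 6 members in MV4-11. Where both lines shared a replicate block, 758 genes and 11 members passed between the scrambled groups, and 794 genes and 6 members between the lines with the CHD4 shRNA. In U937, 9 members passed after quantile normalization and 1 with averaged probe sets. Fitting only the groups compared gave 513 genes in MV4-11, and 317 genes and 1 member between the lines with the CHD4 shRNA. Without the arrays numbered 3, 408 genes passed in U937, 1866 genes and 7 members in MV4-11, 28 genes in the difference between the lines, 14 members between the scrambled groups, and 2691 genes and 13 members between the lines with the CHD4 shRNA. The cause of these differences was not tested. Leaving out 1 array at a time gave, for U937, 306 to 947 genes, 0 to 5 members and medians of 0.16 to 0.39; for MV4-11, 422 to 1964 genes, 1 to 6 members and medians of 0.06 to 0.25. For the mean these were 1690 to 2697 genes, 10 to 19 members and 0.17 to 0.29, and for the difference 0 to 4 genes and 0 members by limma, with 0 members at an unadjusted p under 0.05 in the fit of all arrays. Between the lines they were 317 to 844 genes, 0 to 9 members and 0.16 to 0.34 with the scrambled shRNA, and 304 to 1107 genes, 2 to 6 members and 0.06 to 0.25 with the CHD4 shRNA. With 3 arrays in a group, small changes passed within a line for few members. In U937, PRC1 passed at 0.38 (limma adjusted p = 0.0387), while KIF20A at 0.44 did not (0.0641). Whether the number of arrays is the reason was not tested.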

Other observations

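The genes of DNA replication and G1/S, a list that holds none of the mitotic genes, had different medians in the lines. In U937, 13 of 35 measured genes were above 0 with the CHD4 shRNA, with a median log2 change of -0.10, and in MV4-11, 28 of 35 were above 0, with a median of 0.17. The MV4-11 change minus the U937 change was above 0 for 31 of these 35 genes, with a median of 0.29, against 14 of 47 mitotic genes and a median of -0.08. By limma none of these 35 or 47 genes passed in the difference between the lines, and unadjusted p-values under 0.05 were found for 1 of the 35 and 0 of the 47.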
